A study of Mus musculus with 16 samples.

Results

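Solute carriers are the membrane proteins that move amino acids, lactate, sugars, nucleosides, ions, metals and mitochondrial metabolites, and their genes carry symbols made of Slc, a family number, the letter a and a member number. The genes described here were taken by that form of symbol among the probes of the deposited normalized table, and Slc2a4, the insulin-responsive glucose transporter, was left out. This gave 301 probes of 216 genes among 24377 probes of 16623 named genes. The array as a whole holds 498 such probes of 308 genes, and the remainder were not in the table, which kept probes whose signal averaged over both channels was at least 2 times the background. The symbols also caught 4 genes whose products are named after a carrier but are not carriers themselves (Slc9a3r1, Slc9a3r2, Slc7a6os and Slc4a1ap), which were kept in the counts as a class of their own.

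Skeletal muscle takes up amino acids, creatine, carnitine and glucose from blood and releases lactate and glutamine to it. Lactate leaves through proton-coupled monocarboxylate carriers, glutamine crosses by sodium-coupled system N carriers, and large neutral amino acids exchange through light subunits that need a shared heavy chain. Inside the fibre, carriers of family 25 join the cytosol to the mitochondrial matrix and supply it with ADP, phosphate, acylcarnitines and aspartate.

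The data were dual-channel arrays of gastrocnemius, a calf muscle, from 8 cHF+ROSI and 8 cHF+F+ROSI mice. All were adult male C57BL/6N mice, 3 months old at the start, fed for 8 weeks a high-fat diet of about 35% lipids by weight, mainly corn oil, with rosiglitazone, a PPARγ agonist, at 10 mg per kg diet. In the cHF+F+ROSI diet a concentrate of n-3 LC-PUFA (46% DHA and 14% EPA) took the place of 15% of the lipids. Every mouse was fasted for 10 hours and re-fed Chow overnight before it was killed, so no group here lacked rosiglitazone or the re-feeding. RNA of each mouse was labelled with Cy5 and set against a common Cy3 pool of samples labelled for the arrays. Every value below is therefore log2(Cy5/Cy3) of a mouse against that pool. A difference between groups is a log2 fold change, cHF+F+ROSI over cHF+ROSI. Each of the 4 slides held 2 arrays of each group at fixed positions, and position therefore cannot be told apart from diet. The median signal over background lay between 2.33 and 3.64 in Cy5 and between 1.78 and 2.02 in Cy3, with cHF+ROSI replicate 1 the dimmest array in Cy5. All 9 fast fibre genes and all 4 general muscle genes of a marker list were well above background on every array. The same held for all measured genes of the lists for other cell types, save Schwann cells (5 of 6). This therefore does not serve as a check of the tissue. The mice shared cages, which the labels do not give.

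The results turn first on 4 carriers that passed an unadjusted p of 0.05 together with an absolute FC of 1.2. RefSeq promoter windows (GRCm38.p6, 300 bases around the annotated start) were at hand for 161 of the 216 genes. Those of 3 of the 4 are shown, because these members passed both limits, and Slc38a3 had no window. The capitals mark 2 short motifs read on both strands, ACGTG, the core of hypoxia response elements, and CCAAT, and AGGTCA, the nuclear receptor motif, was searched as well. The motifs do not overlap in these windows. The windows are chr14:54781837-54782136 on the minus strand for Slc7a8, chr15:100761497-100761796 on the plus strand for Slc4a8 and chr11:120948817-120949116 on the plus strand for Slc16a3.
Slc7a8: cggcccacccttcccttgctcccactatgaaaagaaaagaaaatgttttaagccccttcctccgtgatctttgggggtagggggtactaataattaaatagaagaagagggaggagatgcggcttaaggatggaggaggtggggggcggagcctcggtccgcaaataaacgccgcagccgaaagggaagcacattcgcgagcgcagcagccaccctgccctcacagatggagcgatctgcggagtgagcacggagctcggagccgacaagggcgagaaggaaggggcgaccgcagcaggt
Slc4a8: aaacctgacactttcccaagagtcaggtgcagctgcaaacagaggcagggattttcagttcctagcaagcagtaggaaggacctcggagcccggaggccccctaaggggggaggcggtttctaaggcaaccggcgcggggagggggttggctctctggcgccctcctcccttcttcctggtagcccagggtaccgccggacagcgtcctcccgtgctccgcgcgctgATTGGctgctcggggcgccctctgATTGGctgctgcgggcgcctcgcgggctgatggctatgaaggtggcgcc
Slc16a3: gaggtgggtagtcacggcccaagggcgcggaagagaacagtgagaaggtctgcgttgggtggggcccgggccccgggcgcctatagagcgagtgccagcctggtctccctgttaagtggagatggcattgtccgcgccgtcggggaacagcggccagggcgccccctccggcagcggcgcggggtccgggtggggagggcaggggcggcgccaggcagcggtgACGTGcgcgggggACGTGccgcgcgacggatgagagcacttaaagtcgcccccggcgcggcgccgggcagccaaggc

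The Slc16a3 window held ACGTG 2 times, a motif found in 19.6% of 32851 promoter windows of the same length, and the Slc4a8 window held CCAAT 2 times, a motif found in 37.4% of them. AGGTCA, found in 16.3% of the windows, was in none of the 3, and Slc7a8 held none of the 3 motifs. Among the 223 windows of the carrier genes, ACGTG was in 28.3%, CCAAT in 35% and AGGTCA in 12.6%. These matches describe letters only.

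Few carriers were called between the diets, and none passed after adjustment for all probes. With the limit on the unadjusted limma p set at 0.05, 14 of the 301 probes were called, 10 higher and 4 lower in the cHF+F+ROSI mice, and each belonged to a different gene. That is 4.65% of the carrier probes beside 6.63% of all 24377 probes. Higher calls were 3.32% of the carriers and 3.09% of all probes, and lower calls 1.33% and 3.54%. With an absolute FC of at least 1.2 as well, 4 carriers (1.33%) were left beside 1.23% of all probes, namely Slc7a8, Slc16a3 and Slc4a8 higher and Slc38a3 lower. No carrier passed an adjusted p of 0.05 in limma, the lowest adjusted p being 0.463, beside 0.0123% of all probes. In no carrier were the 8 mice of one group fully separate from the 8 of the other, as happened in 0.0738% of all probes. The split between higher and lower calls moved with the normalization, to 6 higher of 11 with median centring in place of loess and 6 higher of 13 with scale normalization between arrays. Without cHF+F+ROSI replicate 5 the calls rose to 22 (7.31%), while those of all probes rose to 9.2%. Without cHF+ROSI replicate 1 or cHF+ROSI replicate 5 the carriers past both limits fell to 1 and to 2. Both mice and cHF+F+ROSI replicate 5 lay near 0 on several carrier probes, called and uncalled. Slc4a8 read 0.01, 0.02 and 0.07 in them, and Slc4a10 -0.00, 0.04 and 0.06. For Slc38a3 they read 0.12, -0.09 and -0.58, so there only the cHF+ROSI mice lay near 0. Among uncalled probes, 1 of Slc30a9 read -0.00, 0.17 and 0.22 in them, against 0.69 to 1.08 in the other mice. Slc10a7 read 0.02, 0.11 and 0.12, against 0.45 to 0.91. This did not hold for every probe, as 1 of Slc25a4 read 0.57, 1.15 and 0.80 in them. These mice, 2 of cHF+ROSI and 1 of cHF+F+ROSI, were not left out together, and their bearing on the called differences was not tested.

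The log2 fold changes of the carriers centred close to 0. Their median was 0.01 beside -0.00 over all probes, and 162 were above 0 and 139 below. The middle 90% of the carriers lay between -0.12 and 0.16, and 11 probes (3.65%, beside 2.17% of all probes) had an absolute FC of at least 1.2 whatever their p. The spread between mice of a group was 0.14 for the median carrier, as an SD on the log2 scale, and 0.13 for the median probe of the array.

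**Figure D1:**
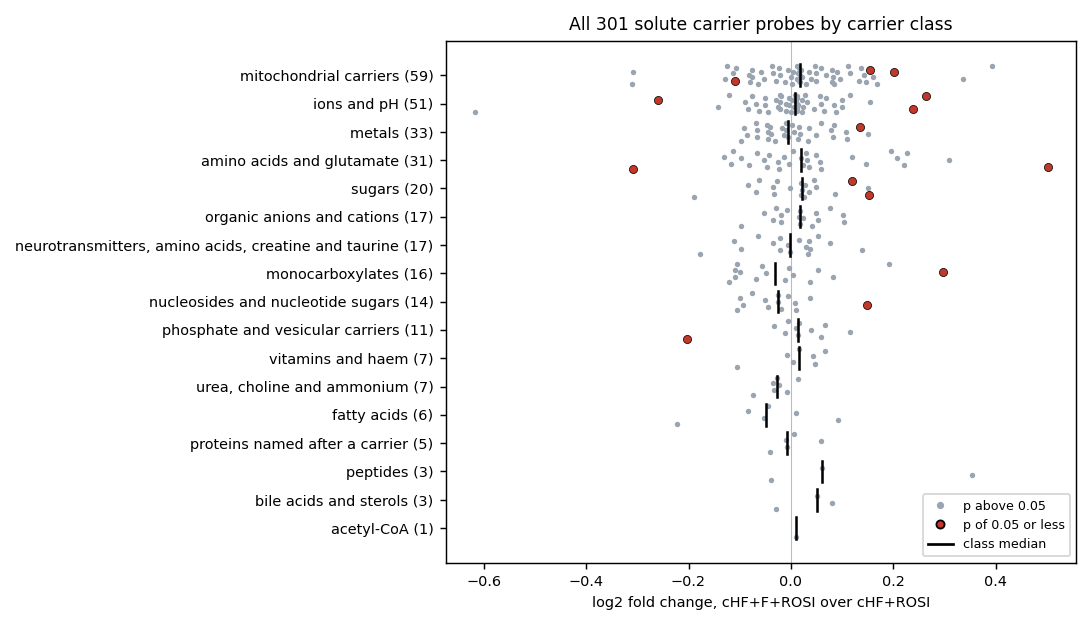
Log2 fold change (cHF+F+ROSI over cHF+ROSI) of each of the 301 solute carrier probes on the horizontal axis, by carrier class with the number of probes, where red points have an unadjusted limma p of 0.05 or less and black bars are class medians. The class medians lie between -0.05 and 0.06, and the 14 red points are spread over 8 classes.

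Amino acid carriers held both the largest called rise and the largest called fall among the carriers. Of 31 probes of 22 genes in families 1, 3, 7, 36, 38 and 43, 1 was called higher and 1 lower, and the median log2 fold change was 0.02. Slc7a8 encodes LAT2, a light subunit that exchanges neutral amino acids, and its probe lies at chr14:53676505-53676564 in the array's mm8 annotation. Its log2 ratios ran from -0.86 through a median of -0.04 to 0.07 in the cHF+ROSI mice and from -0.19 through 0.38 to 0.79 in the cHF+F+ROSI mice. In all, 6 of the 8 cHF+F+ROSI mice lay above every cHF+ROSI mouse, and the other 2 lay within their range. Slc7a8 was thus 0.50 higher on the log2 scale (SE 0.149, 1.42-fold, n = 8 and 8), with an unadjusted p of 0.00357 and an adjusted p of 0.463 in limma and 0.00684 in the exact two-sided permutation test over mice. The difference was above 0 on each of the 4 slides, between 0.07 and 0.86, and was 0.40 without cHF+ROSI replicate 7, whose value stood apart at -0.86.

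Slc38a3 encodes SNAT3, a system N carrier that moves glutamine with sodium, and its probe lies at chr9:107509595-107509654. Its log2 ratios ran from -0.69 through -0.33 to 0.12 in the cHF+ROSI mice and from -1.24 through -0.55 to -0.31 in the cHF+F+ROSI mice. All 8 cHF+F+ROSI mice lay below the cHF+ROSI mean, and 1 of them, replicate 2, lay below every cHF+ROSI mouse. Slc38a3 was 0.31 lower (log2 fold change -0.31, SE 0.131, unadjusted p = 0.0306 and adjusted p = 0.703 in limma, exact permutation p = 0.0465). The fall was on 3 of 4 slides, with within-slide differences from -0.81 to 0.24. Its p rose above 0.05 when cHF+F+ROSI replicate 2 was left out (log2 fold change -0.22), and also without cHF+ROSI replicate 1, 5 or 6.

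The preset list of amino acid carriers known from muscle held 24 genes, of which 18 had probes in the deposited table and 6 had none. Slc7a8 and Slc38a3 were the only calls among the 26 probes. The heavy chain Slc3a2, which LAT2 needs to reach the membrane, had log2 fold changes of -0.05 and 0.04 on its pair of probes, with SE of 0.06 each. The other large neutral amino acid exchanger, Slc7a5, had 0.05 (adjusted p = 0.93 in limma). SNAT2, encoded by Slc38a2, which rises when amino acids are scarce, was read by 4 probes with values between -0.13 and 0.03. Of 8 listed carriers that the stress factor ATF4 is known to raise, 6 had probes in the deposited table, and Slc1a4 and Slc7a11 had none. None of the 10 probes of these 6 carriers was called, and their median was -0.01. Among these the glutamine exchanger Slc1a5 had the largest difference, 0.31 (adjusted p = 0.809 in limma).

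**Figure D2:**
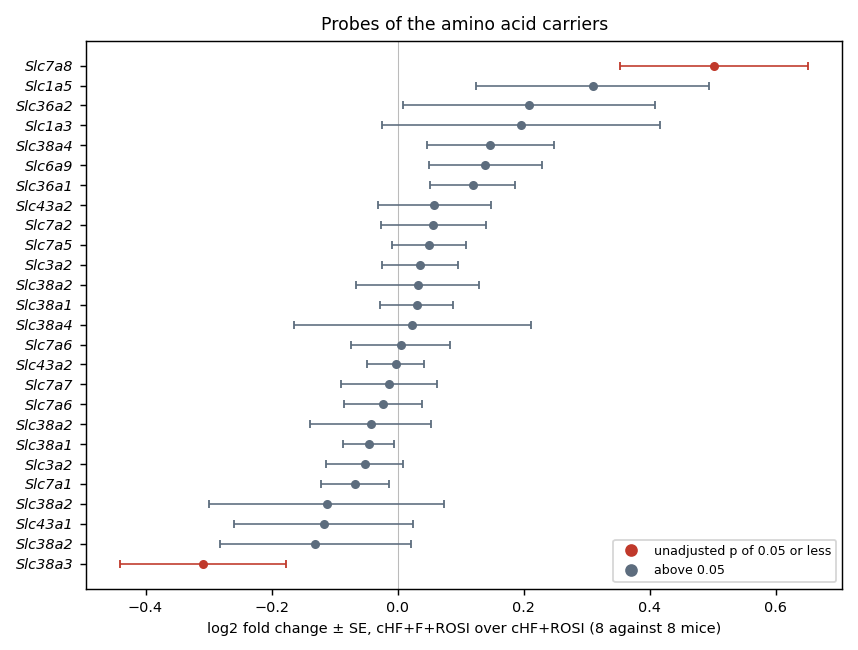
Log2 fold change with its standard error (horizontal axis, cHF+F+ROSI over cHF+ROSI, 8 mice against 8) for the 26 probes of the amino acid carrier list, one line per probe. Slc7a8 at 0.50 and Slc38a3 at -0.31, drawn in red, were the 2 probes with an unadjusted limma p of 0.05 or less.

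Among the monocarboxylate carriers of family 16, Slc16a3 alone of 16 probes of 11 genes was called, and the family median was -0.03. Slc16a3 encodes MCT4, the lactate exporter of fast glycolytic fibres, with a probe at chr11:120774799-120774858. Its log2 ratios ran from -0.11 through 0.32 to 0.49 in the cHF+ROSI mice and from 0.09 through 0.44 to 0.96 in the cHF+F+ROSI mice. Of the cHF+F+ROSI mice, 3 exceeded every cHF+ROSI mouse and the other 5 overlapped with them. The log2 fold change was 0.30 (SE 0.126, unadjusted p = 0.0307 and adjusted p = 0.703 in limma, exact permutation p = 0.0485). It was above 0 on 3 of 4 slides, with a range from -0.27 to 0.70, and p rose above 0.05 without cHF+ROSI replicate 1, 2 or 7 or cHF+F+ROSI replicate 2, 6 or 8. The lactate importer MCT1, encoded by Slc16a1, gave 0.19, -0.11 and -0.07 on its 3 probes, none with a p of 0.05 or less, and Slc16a7 gave 0.05.

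Nucleosides enter cells through the equilibrative transporter ENT1, encoded by Slc29a1, with a probe at chr17:45049000-45049059. Its log2 ratios ran from -0.09 through 0.03 to 0.13 in the cHF+ROSI mice and from 0.07 through 0.19 to 0.31 in the cHF+F+ROSI mice. Each of the 8 cHF+F+ROSI values exceeded the cHF+ROSI mean and 5 exceeded every cHF+ROSI value. This probe had the lowest exact permutation p of the called carriers, 0.00264, for a log2 fold change of 0.15 (SE 0.0452, unadjusted p = 0.00418, adjusted p = 0.483 in limma), and the difference lay between 0.09 and 0.18 on the 4 slides. The other 13 probes of nucleoside and nucleotide sugar carriers were not called.

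Slc5a6 belongs by number to the sodium-coupled glucose carriers but encodes SMVT, which takes up biotin, pantothenate and lipoate. At chr5:31312884-31312943, its log2 ratios ran from -0.14 through 0.03 to 0.16 in the cHF+ROSI mice and from 0.03 through 0.22 to 0.27 in the cHF+F+ROSI mice. Again all 8 cHF+F+ROSI mice were above the cHF+ROSI mean and 5 above the whole cHF+ROSI range, for a log2 fold change of 0.15 (SE 0.0496, unadjusted p = 0.00683, adjusted p = 0.535 in limma, exact permutation p = 0.00606). Slc45a4, grouped with the sugar carriers too, was 0.12 higher (unadjusted limma p = 0.0471, exact permutation p = 0.0444), but its probe was well above background in Cy5 on 13 of 16 arrays and in Cy3 on none, its second probe read -0.00, and p exceeded 0.05 in 11 of the 16 fits that left out 1 mouse. Of the sugar carriers listed for muscle, 0 of 7 probes of 6 genes were called. Slc2a1, the basal glucose transporter, had -0.19 (adjusted p = 0.787 in limma), with cHF+ROSI mice between 0.42 and 0.87 and cHF+F+ROSI mice between -0.01 and 0.79, 5 of them below every cHF+ROSI mouse.

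**Figure D3:**
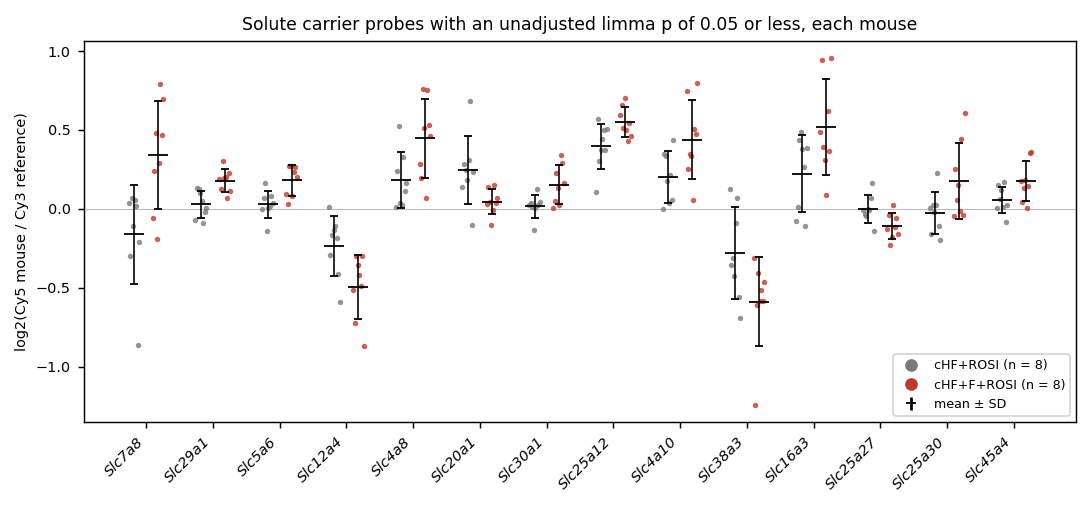
Log2(Cy5/Cy3) of each mouse (points) with group mean and SD (bars) for the 14 carrier probes with an unadjusted limma p of 0.05 or less, cHF+ROSI in grey and cHF+F+ROSI in red, 8 mice each. The groups overlap in every gene, and single mice lie far out for Slc7a8 (-0.86, cHF+ROSI) and Slc38a3 (-1.24, cHF+F+ROSI).

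Carriers of ions and acid equivalents formed the second largest class, with 51 probes of 34 genes, of which 2 were called higher and 1 lower. Slc12a4 encodes KCC1, which exports potassium with chloride, and its probe lies at chr8:108832912-108832971. Its log2 ratios ran from -0.59 through -0.18 to 0.01 in the cHF+ROSI mice and from -0.87 through -0.45 to -0.30 in the cHF+F+ROSI mice. All 8 cHF+F+ROSI mice were below the cHF+ROSI mean and 2 below every cHF+ROSI mouse, and the log2 fold change of -0.26 (SE 0.093, unadjusted p = 0.012 and adjusted p = 0.618 in limma, exact permutation p = 0.0194) had the same sign on all 4 slides. It fell just short of the FC limit of 1.2, while Slc4a8 at 0.27 was just past it.

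Both higher calls of this class were sodium-coupled bicarbonate carriers of family 4. For Slc4a8, at chr15:100651810-100651869, the cHF+ROSI mice ran from 0.01 through 0.14 to 0.53 and the cHF+F+ROSI mice from 0.07 through 0.49 to 0.76, with 3 of the latter above every cHF+ROSI mouse. The log2 fold change was 0.27 (SE 0.101, unadjusted p = 0.0173, adjusted p = 0.672 in limma, exact permutation p = 0.0312). Its other probes read 0.10 and 0.01 and were not called. For Slc4a10 the log2 fold change was 0.24 (SE 0.0976, unadjusted limma p = 0.0256, exact permutation p = 0.0402), from a probe well above background in Cy3 on only 3 of 16 arrays, and p exceeded 0.05 without cHF+ROSI replicate 1 or cHF+F+ROSI replicate 1 or 8. A further member of the family, Slc4a7, named after its values were seen, had the largest difference of any carrier, -0.62 on 1 of 3 probes, with an SE of 0.312 and an adjusted p of 0.766 in limma, and its direction turned with scale normalization and with Cy5 alone. That probe read from -4.27 to -0.66, far below the pool in every mouse, its Cy3 signal differed by 0.76 between the groups, and the other probes read 0.15 and -0.14.

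Phosphate and zinc carriers had 1 call each. Slc20a1, which encodes the phosphate carrier PiT1, ran from -0.10 through 0.24 to 0.68 in the cHF+ROSI mice and from -0.10 through 0.04 to 0.15 in the cHF+F+ROSI mice. The cHF+F+ROSI mice were less spread and all 8 lay below the cHF+ROSI mean, for a log2 fold change of -0.20 (SE 0.0782, unadjusted p = 0.0189, adjusted p = 0.677 in limma, exact permutation p = 0.0154). Its second probe read 0.04, so that the fall rests on 1 of 2 probes. Slc30a1, which encodes the zinc exporter ZnT1, was 0.14 higher (SE 0.0536, unadjusted limma p = 0.0209, exact permutation p = 0.0182), with 5 cHF+F+ROSI mice above every cHF+ROSI mouse, and its second probe read 0.15 with an SE of 0.119. None of the other 32 probes of metal carriers was called, and the class median was -0.01.

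Mitochondrial carriers were the largest class, with 59 probes of 36 genes, and had 2 calls higher, 1 lower and a median of 0.02. Slc25a12 encodes aralar, the aspartate and glutamate exchanger of the malate shuttle, and lies at chr2:71075761-71075820. Its log2 ratios ran from 0.11 through 0.41 to 0.57 in the cHF+ROSI mice and from 0.43 through 0.53 to 0.70 in the cHF+F+ROSI mice, all of the latter above the cHF+ROSI mean. The log2 fold change was 0.15 (SE 0.0612, unadjusted p = 0.0215, adjusted p = 0.688 in limma, exact permutation p = 0.0183), and the second probe read 0.09. With scale normalization between arrays this value was -0.02, so its direction did not hold under every scaling. Of other carriers that feed oxidative phosphorylation, the ADP/ATP carrier Slc25a4 read 0.15 and 0.08, the phosphate carrier Slc25a3 between 0.01 and 0.08, and the acylcarnitine carrier Slc25a20 read -0.08, none with a p of 0.05 or less. Slc25a27, known as UCP4, was -0.11 on 1 probe (unadjusted limma p = 0.0309, exact permutation p = 0.0208) but 0.06 and 0.00 on its other probes, it was 0.04 when Cy5 was analysed alone, and its called probe also differed in the reference channel (by 0.07).

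Slc25a30, which encodes the kidney mitochondrial carrier KMCP1, had log2 fold changes of 0.20, 0.34 and 0.39 on its 3 probes. Only the first passed (SE 0.0916, unadjusted p = 0.041, adjusted p = 0.74 in limma, exact permutation p = 0.0559), and in 8 of 16 fits without 1 mouse its p exceeded 0.05. The probes moved together from mouse to mouse, with a mean Pearson r of 0.935 between them over 16 mice. On the probe with the largest difference the cHF+ROSI values lay between -1.18 and 0.32 and the cHF+F+ROSI values between -0.89 and 1.1, and its Cy3 signal differed by 0.08 between the arrays of the groups. The ATP-Mg and phosphate carrier Slc25a25, named after its values were seen, read -0.31, -0.31 and -0.13 on its 3 probes (mean r between probes 0.905), and none was called.

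The remaining classes had no call. Creatine and taurine carriers, Slc6a8 and Slc6a6, had log2 fold changes of -0.00, -0.10 and -0.18 over 3 probes. The carnitine and fatty acid carriers listed for muscle read between -0.08 and 0.09 over 7 probes, with Slc22a5, the carnitine carrier OCTN2, at 0.08 (adjusted p = 0.782 in limma, exact permutation p = 0.0375). In the other classes the probe with the smallest p was Slc6a2 among neurotransmitter carriers (-0.11, adjusted p = 0.759), Slc27a3 among fatty acid carriers (-0.08, adjusted p = 0.865), Slc15a2 among peptide carriers (0.35, adjusted p = 0.849) and Slc23a3 among vitamin and haem carriers (-0.11, adjusted p = 0.804). It was Slc44a1 among urea, choline and ammonium carriers (-0.07, adjusted p = 0.89), Slc10a6 among bile acid carriers (0.08, adjusted p = 0.938), and Slc4a1ap among the products that are not carriers (0.06, adjusted p = 0.92). The 1 probe of the acetyl-CoA carrier Slc33a1 read 0.01. Of 7 probes of 6 partner proteins that carriers need or bind, such as Emb, none was called, and neither was any of 16 probes of 12 carriers with other symbols, such as Ucp3 (0.21, adjusted p = 0.917) and Mtch1.

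Where a gene had several probes, they often disagreed in sign. Of 67 such genes, 36 had all probes on one side of 0 and 31 did not. In 7 of them a probe was called, and in none were 2 probes called. Both Slc4a8 and Slc25a30 had all 3 probes above 0, and both probes of Slc30a1 and of Slc25a12 were above 0, while Slc20a1, Slc45a4 and Slc25a27 had probes on both sides.

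The called differences were set beside other ways of processing the arrays. Slc7a8, Slc5a6, Slc12a4 and Slc4a8 passed an unadjusted p of 0.05 in all 12 alternatives and in all 16 fits that left out 1 mouse. For Slc7a8 the log2 fold change lay between 0.37 and 0.61 over the alternatives, for Slc12a4 between -0.31 and -0.20, and for Slc5a6 between 0.13 and 0.23. The value of Slc4a8 lay between 0.19 and 0.51. Slc29a1 passed in 10 of 12 alternatives and in every fit without 1 mouse, with values from 0.11 to 0.23, and Slc20a1 and Slc30a1 likewise passed in 10 and in every such fit. Slc38a3 passed in 10 of 12 alternatives and 12 of 16 fits without 1 mouse, and Slc16a3 in 9 and 10. Slc4a10 passed in all 11 alternatives that measured it and in 13 of the 16 fits, and Slc25a12 in 8 of 12 and all 16. The fewest passes were those of Slc25a27 (6 of 12 and 11 of 16), Slc25a30 (3 of 12 and 8 of 16) and Slc45a4 (3 of 11 and 5 of 16).

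**Figure D4:**
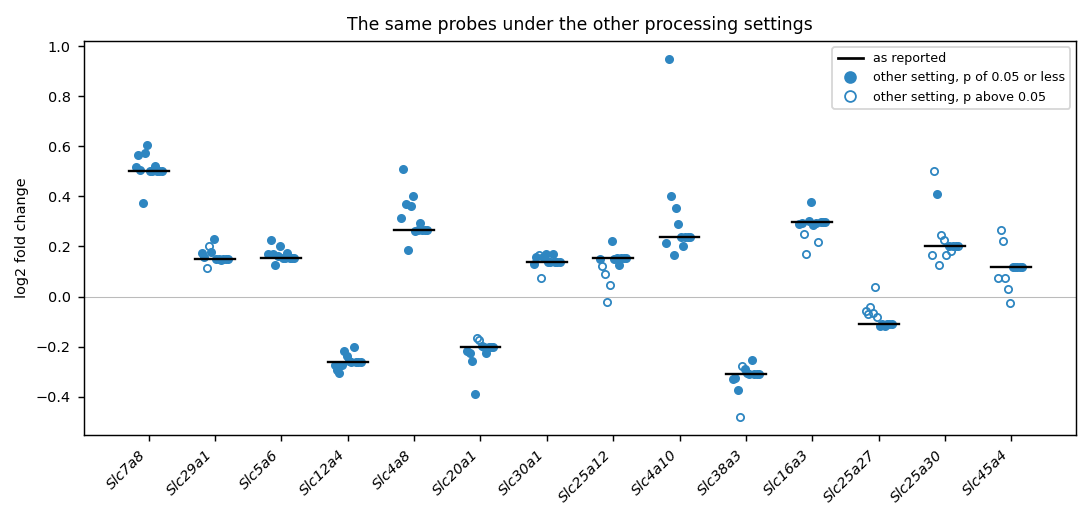
Log2 fold change (vertical axis) of the 14 called carrier probes as reported (black bars) and under the other processing settings (points, filled where the unadjusted p was 0.05 or less). Slc7a8 stayed between 0.37 and 0.61, whereas Slc25a12, Slc25a27 and Slc45a4 each crossed 0 once.

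The reference channel held the same pool on all arrays. There, 13 of the 301 carrier probes were called between the groups by the same limit, beside 3.5% of all probes, and Slc25a27 was the only one also called in the ratio.

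Some carriers varied widely between mice of the same diet. The 5 largest SDs within groups were 0.76 for 1 probe of the mitochondrial carrier Slc25a35, 0.696 for the Slc4a7 probe at -0.62, 0.624 for the Slc25a30 probe at 0.39, 0.593 for Slc7a10 and 0.589 for Slc27a2. The log2 fold changes of Slc25a35, Slc7a10 and Slc27a2 were -0.03, 0.22 and -0.22. The Slc25a35 probe was highest in cHF+ROSI replicates 1 and 5 and cHF+F+ROSI replicate 5, at 0.36, -0.31 and -0.45. In the same mice the unrelated Slc33a1 probe read 0.01, 0.06 and 0.11, against 0.44 to 0.81 in the others. Each mouse had 1 array, so mouse and array cannot be told apart, and the cause was not tested. Part of the variation between mice ran along with marker genes of tissue components. These relations are given as descriptions over 16 mice, for carriers with the highest r to a list or called above, with no test. The carriers were chosen after their values were seen, and both measures come from the same arrays. In whole muscle, fewer cells of a type and less RNA per cell cannot be told apart.

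The closest relation was with adipocyte genes, of which 6 were measured and all were well above background on every array. Their mean log2 ratio lay between -1.06 and 0.47 among cHF+ROSI mice and between -1.49 and 1.15 among cHF+F+ROSI mice, with no probe called. Slc7a10, which encodes the serine exchanger ASC-1 known as an adipocyte surface protein, had a Pearson r of 0.965 and a Spearman rho of 0.944 with that mean, and r was 0.947 without the 2 mice farthest from its median. The glutamine exchanger Slc1a5 followed with an r of 0.922, a rho of 0.956 and 0.893 without those mice. Slc36a2, a proton-coupled amino acid carrier known from brown and beige fat, had 0.808, and the glutamate carrier Slc1a3 had 0.787. None of these 4 carriers was called between the diets.

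Slow fibre genes, whose mean reached -2.08 in cHF+F+ROSI replicate 2, ran closest with Slc35a4 (r = 0.843, and 0.586 without the 2 farthest mice) and with Slc25a20, the acylcarnitine carrier (r = 0.824, rho = 0.738, and 0.533 without the 2 farthest mice). Slc38a3 had an r of 0.716 with them, but only 0.324 without the 2 farthest mice, so that this relation rests largely on those mice. For Slc12a4 the r was 0.657, with 0.645 within groups and 0.512 without the 2 farthest mice. Slc25a12 had -0.554, with -0.514 within groups and -0.523 without those mice. Slc16a3 had -0.499 with the slow fibre genes, -0.444 within groups and -0.258 without those mice. With the fast fibre genes Slc16a3 had -0.257, and 0.313 without the 2 mice farthest in that list. With the general muscle genes it had -0.57, and -0.206 without the 2 farthest there. The pair of Slc25a25 probes at -0.31 had r of 0.667 and 0.684 with the slow fibre genes, and 0.677 and 0.687 without the 2 farthest mice.

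Macrophage genes ran with Slc7a7, a cationic amino acid exchanger (r = 0.76, rho = 0.844), and with Slc11a1, the phagosomal metal carrier NRAMP1 (r = 0.746, rho = 0.806). Red blood cell genes, highest in cHF+F+ROSI replicate 6 at 1.2, ran with Slc4a1, the band 3 anion exchanger of red cells (r = 0.714, rho = 0.632, and 0.5 without the 2 farthest mice). Schwann cell genes and fibroblast genes both ran with Slc2a1, at r of 0.775 and 0.731, and fibroblast genes also with the taurine carrier Slc6a6 at 0.75. None of these carriers was called between the diets. Of the called carriers, 3 ran opposite to the macrophage genes. Slc5a6 had an r of -0.579 (-0.783 within groups, -0.417 without the 2 farthest mice) and Slc4a8 -0.537 (-0.649 and -0.546). Slc30a1 had -0.512 (-0.637 and -0.225), and the other called carriers lay between -0.256 (Slc25a30) and 0.108 (Slc16a3).

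**Figure D5:**
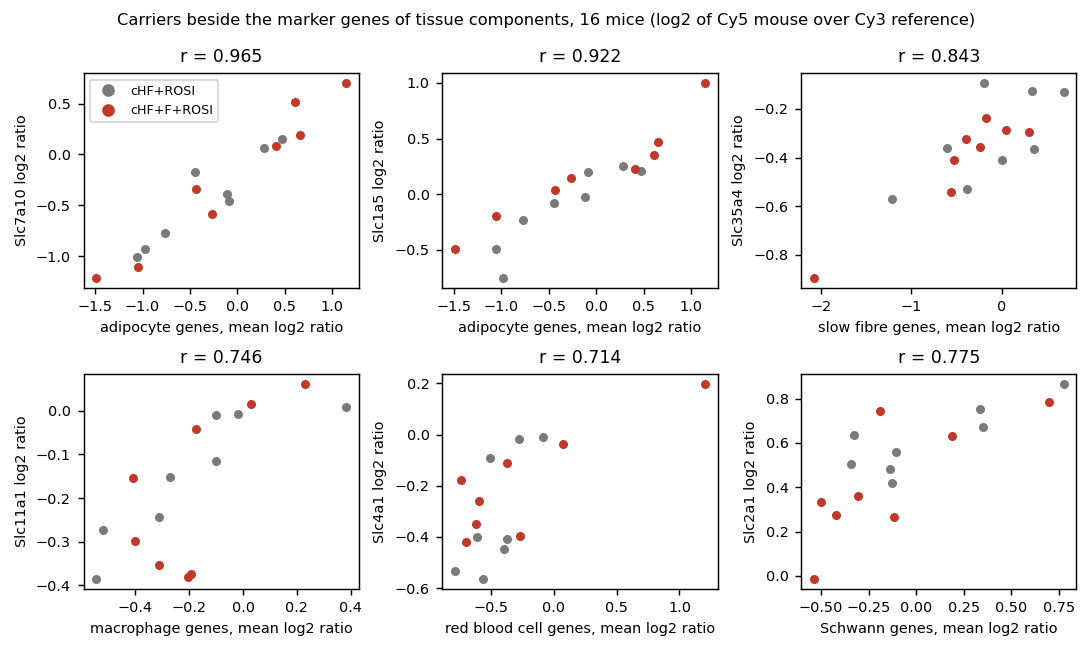
Log2 ratio of a carrier (vertical axis) against the mean log2 ratio of a marker list (horizontal axis) in the 16 mice, grey for cHF+ROSI and red for cHF+F+ROSI. Slc7a10 and Slc1a5 rise along the adipocyte genes in both groups (r = 0.965 and 0.922), and Slc4a1 is highest in the mouse with red blood cell genes at 1.2.

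Endothelial genes were the only marker list with more than 1 called probe, and 4 of its 8 probes were called, each with a lower cHF+F+ROSI mean. The mean of its 6 genes lay between -0.21 and 0.04 among cHF+ROSI mice and between -0.46 and -0.14 among cHF+F+ROSI mice. All 6 genes were well above background on every array. Over the 16 mice, the 4 carriers called lower had r with that mean from 0.45 (Slc20a1) to 0.623 (Slc38a3), and the 10 called higher from -0.67 (Slc4a8) to -0.23 (Slc25a12), values that include the difference between the groups in both measures. With group means taken out, the 4 ran from 0.122 (Slc20a1) to 0.446 (Slc38a3) and the 10 from -0.486 (Slc4a8) to 0.249 (Slc25a12). Slc7a8 had -0.223 within groups, Slc16a3 -0.38, Slc12a4 0.384 and Slc29a1 0.000896. The part of endothelial RNA in these differences was not tested.

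The 5 other carrier probes most like Slc7a8 over the 16 mice were Slc15a2, the peptide carrier PEPT2, with an r of 0.755, Slc1a5 with 0.693, and the 3 probes of Slc25a30 with 0.714, 0.677 and 0.661. With group means taken out the r were 0.75, 0.635, 0.662, 0.547 and 0.626. Slc7a8 itself had an r of 0.477 with the adipocyte genes, 0.465 within groups and 0.368 without the 2 farthest mice, and the 3 probes of Slc25a30 had r of 0.49, 0.555 and 0.55 with them, while Slc15a2 had 0.184. Slc15a2 and Slc7a8 shared their lowest cHF+ROSI mouse, replicate 7, at -1.05 and -0.86. Slc15a2 itself ran from -1.05 through 0.08 to 0.22 in the cHF+ROSI mice and from -0.54 through 0.09 to 1.15 in the cHF+F+ROSI mice, a difference of 0.35 with an SE of 0.247 that did not pass.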

How the data were processed

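Agilent 44K mouse arrays of 16 mice were analysed. The authors deposited spot intensities from Feature Extraction (10.5.1.1 in the file headers, 10.5.5.1 in the submitters' processing notes) and a table of normalized log2 values of Cy5 and Cy3 made by GeneMaths XT, which was used for its probe set and as an alternative. Coordinates are those of the mm8 probe annotation. Here, median intensities were corrected by normexp (offset 50), normalized by loess within arrays on the probes of the table, with outlier-flagged spots left out, and averaged per probe. The comparison of groups used moderated linear models (limma 3.58.1, R 4.3.3), and p-values were adjusted over 24377 probes by the Benjamini-Hochberg method. Exact two-sided permutation tests ran over all 12870 splits of the mice (smallest p 0.0001554). Only the group fit was tried out, on the normalized values with mixed group labels and known shifts added to some probes. The steps before it were not tested in that way. No arrays held identical ratios. RefSeq accessions matched 89.4% of the members. The number of arrays limits the precision.

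Probes were named if their unadjusted p was up to 0.05, if they led a class, if they belonged to a preset list or a called gene, and otherwise as stated. The members and lists were chosen with earlier results of these data known. Preset lists, partners and cell type markers were written from general knowledge. As alternatives, other background corrections and normalizations, Cy5 alone, the deposited table, filters, slide and replicate blocks, array weights, the methods' t-test and each mouse left out were run. The result of 1 preset list is not reported here.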

Additional observations from a re-analysis of the deposited data

Results flagged for a closer look

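In 6 groups of 8 mice, 1 value stood apart from the others by Dixon's test, out of 58 groups tested over the named carriers, where chance alone flags about 1 in 20. For Slc7a8 it was cHF+ROSI replicate 7 at -0.86, with the next mouse at -0.30. For Slc15a2 it was the same mouse at -1.05, next to -0.08. For Slc38a3 it was cHF+F+ROSI replicate 2 at -1.24, next to -0.61, the mouse that also had the lowest slow fibre genes. For the large probe difference of Slc4a7 a mouse stood apart in each group, cHF+ROSI replicate 1 at -0.66 next to -2.30 and cHF+F+ROSI replicate 2 at -4.27 next to -3.42. For Slc30a1 it was cHF+ROSI replicate 4 at -0.14, next to 0.01.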

How the results depend on the processing

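No carrier passed an adjusted p of 0.05 under any alternative, all of which were run. The count of carriers at an unadjusted p of 0.05, 14 as reported, was 24 without background correction, 24 with signals processed by Feature Extraction and 22 with the authors' normalized table, and from 12 to 22 without 1 mouse. In the first 3 of these the share was 7.97%, 7.97% and 7.31% of carriers, beside 9.55%, 9.55% and 7.98% of all probes. With an absolute FC of 1.2 as well the count, 4 as reported, was 11 with signals processed by Feature Extraction, 7 with median centring, 7 with Cy5 alone, 9 with the authors' table and from 1 to 6 without 1 mouse. The median log2 fold change was 0.032 with median centring, and between -0.00 and 0.01 without 1 mouse. Directions turned for Slc25a12 (-0.020, scale normalization), Slc25a27 (0.038, Cy5 alone), Slc45a4 (-0.026, authors' table), the uncalled Slc4a7 (0.44, scale normalization, and 0.22, Cy5 alone) and the uncalled Slc15a2 (-0.015, signals processed by Feature Extraction). The cause was not tested. With a replicate block the counts were 16 and 4. The deviations of same-numbered mice from their group means had r from -0.341 to 0.743, above 0.1 for 4 of 8 numbers, and 2 of 16 mice were closest to the mouse of their own number, so the mice were not taken as paired. With slide as a block the counts were 14 and 4, with the methods' t-test 16 and 4. Leaving out cHF+ROSI replicates 1 and 7 and cHF+F+ROSI replicate 2 together, chosen after seeing the data, gave 15 and 3, of which 7 of the 15 were also called with all mice. The dim Cy3 reference limits weak probes, since 232 of the 301 carriers reached 2 times the background in each channel, and 12 of those were called.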
